A study of Homo sapiens with 12 samples.

Results

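Caspases, the apoptosome scaffold APAF1 and the inhibitors of apoptosis (IAPs) were examined in 2 human retinoblastoma cell lines through 8 gene symbols: CASP8, CASP9, APAF1, DIABLO, XIAP, BIRC2, BIRC5 and BIRC6. Every entry of the deposited count table with one of these symbols was taken, which gave 9 entries of 19974 Ensembl genes (27505 features with unannotated loci), because DIABLO has 2 Ensembl identifiers. WERI-Rb-1, shortened to WERI, and Y79 are established lines grown from retinoblastoma, a childhood tumour of the retina. The 4 groups of 3 libraries each were WERI with 50 nM THZ1 for 12 h, WERI with 0.1% DMSO for 12 h, Y79 with 50 nM THZ1 for 12 h, and Y79 with 0.1% DMSO for 12 h. THZ1 is a covalent inhibitor of CDK7, a kinase of the general transcription machinery. All cultures are labelled WT in genotype, the labels do not give the DMSO content of the THZ1 cultures, and 1 cell line stands for each background.

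Apoptosis runs along a receptor route and a mitochondrial route. In the receptor route, ligand-bound death receptors recruit FADD and activate CASP8. In the mitochondrial route, cytochrome c (CYCS) leaves mitochondria and joins APAF1 into the apoptosome, which activates CASP9, while DIABLO (also called Smac) leaves with it and displaces IAPs from caspases. Among the IAPs, XIAP blocks CASP9 and other caspases directly, BIRC2 (cIAP1) is a ubiquitin ligase in tumour necrosis factor receptor complexes, BIRC6 is a giant ubiquitin-conjugating enzyme, and BIRC5 (survivin) also serves cell division as a subunit of the chromosomal passenger complex.

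The libraries held between 29677575 and 37433574 counts. CDK7 mRNA, measured as CPM (counts scaled to a common library size with TMM factors), was at 3.00 ± 0.240 CPM in WERI with THZ1 and 11.1 ± 1.13 CPM with DMSO, and at 5.42 ± 0.337 CPM in Y79 with THZ1 and 19.3 ± 0.147 CPM with DMSO (SD, n = 3 each). For the cell type markers only, CPM was scaled to the library total without TMM factors. Their THZ1 and DMSO levels are therefore not on the TMM scale. All 7 photoreceptor and retinoblastoma markers checked were detected in both lines. Their summed levels were 1094 to 1102 CPM in WERI with THZ1 and 2784 to 2881 CPM with DMSO. In Y79 they were 522 to 542 CPM with THZ1 and 1444 to 1457 CPM with DMSO. Not every marker followed these sums. CRX, OTX2, RXRG and THRB were lower with THZ1 in both lines, while NRL and ARR3 were lower in Y79 and overlapped in WERI. RCVRN was higher with THZ1, at 276.5 to 309.8 CPM against 194.9 to 201.8 CPM with DMSO in WERI. In Y79 RCVRN was at 28.4 to 39.0 CPM with THZ1 and 19.7 to 22.8 CPM with DMSO. Markers of blood (4 genes) and endothelium (3 genes) summed to at most 2.91 CPM in any library, with CD3E and CDH5 at or near 0. Of 4 glial markers only SLC1A3 was above a few CPM, and only in WERI (93.1 to 107 CPM with THZ1 and 100 to 114 CPM with DMSO). Of 4 pigment epithelium markers TYR had no counts, and BEST1 ranged between 0.187 and 34.8 CPM. Of 4 stromal markers COL1A1 stood out in WERI, at 46.3 to 49.9 CPM with THZ1 and 29.2 to 32.5 CPM with DMSO, and the part of these markers in the results was not tested. The second Y79 library with THZ1 stood apart from the other Y79 libraries with THZ1, with a chi-square per degree of freedom of 72.9 and 74.4 against them, whereas every other pair within a group was between 7.73 and 13.8. The Y79 fold changes of the members with a single entry are therefore also given without this library.

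The scale matters for the direction of BIRC5. TMM scaling centres the typical gene, and the median log2 fold change over all 14865 tested genes was then -0.11 in WERI and -0.09 in Y79. With library size only the median was -0.56 in WERI and -0.65 in Y79, and with the mitochondrially encoded mRNAs as the yardstick it was -2.01 in WERI and -1.80 in Y79. Those mRNAs took 9.79% to 11.2% of counts in WERI with THZ1 and 3.74% to 3.93% with DMSO, and 8.44% to 9.73% in Y79 with THZ1 and 3.94% to 4.46% with DMSO. The changes below are relative to the typical gene unless another scale is named. In RNA from whole cultures, fewer cells of a kind and less RNA per cell cannot be told apart.

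The first comparison asked how these genes stood after THZ1 in WERI. Of the 9 entries, all of which passed the filter on low counts, BIRC5 rose under TMM scaling (and fell under mitochondrial scaling), 6 fell (CASP9, APAF1, DIABLO, XIAP, BIRC2 and BIRC6), and CASP8 and the second DIABLO entry did not pass the test. Over all tested genes 64.8% were called in this comparison, 27.7% higher and 37.2% lower, so that being called was the common state and the count of 7 is read only against that share. The median log2 fold change of the 9 entries was -0.64, beside -0.11 for all tested genes. The THZ1 and DMSO libraries did not overlap for 7 entries (1 higher and 6 lower), as for 75.9% of tested genes (33.1% higher and 42.8% lower). In Y79 the same 7 entries were called, each in the same direction as in WERI, against 68.3% of all tested genes (29.9% higher and 38.5% lower), and the median of the 9 entries was -0.41, beside -0.09 for all. There the groups did not overlap for 8 entries, CASP8 and BIRC5 with higher and 6 with lower THZ1 libraries, as for 68.9% of tested genes (29.4% higher and 39.5% lower). BIRC5 was thus called higher, and the other 6 lower, in each line under TMM scaling. Under mitochondrial scaling BIRC5 was called lower in both lines, and with library size only its change in Y79 was not called.

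**Figure D1:**
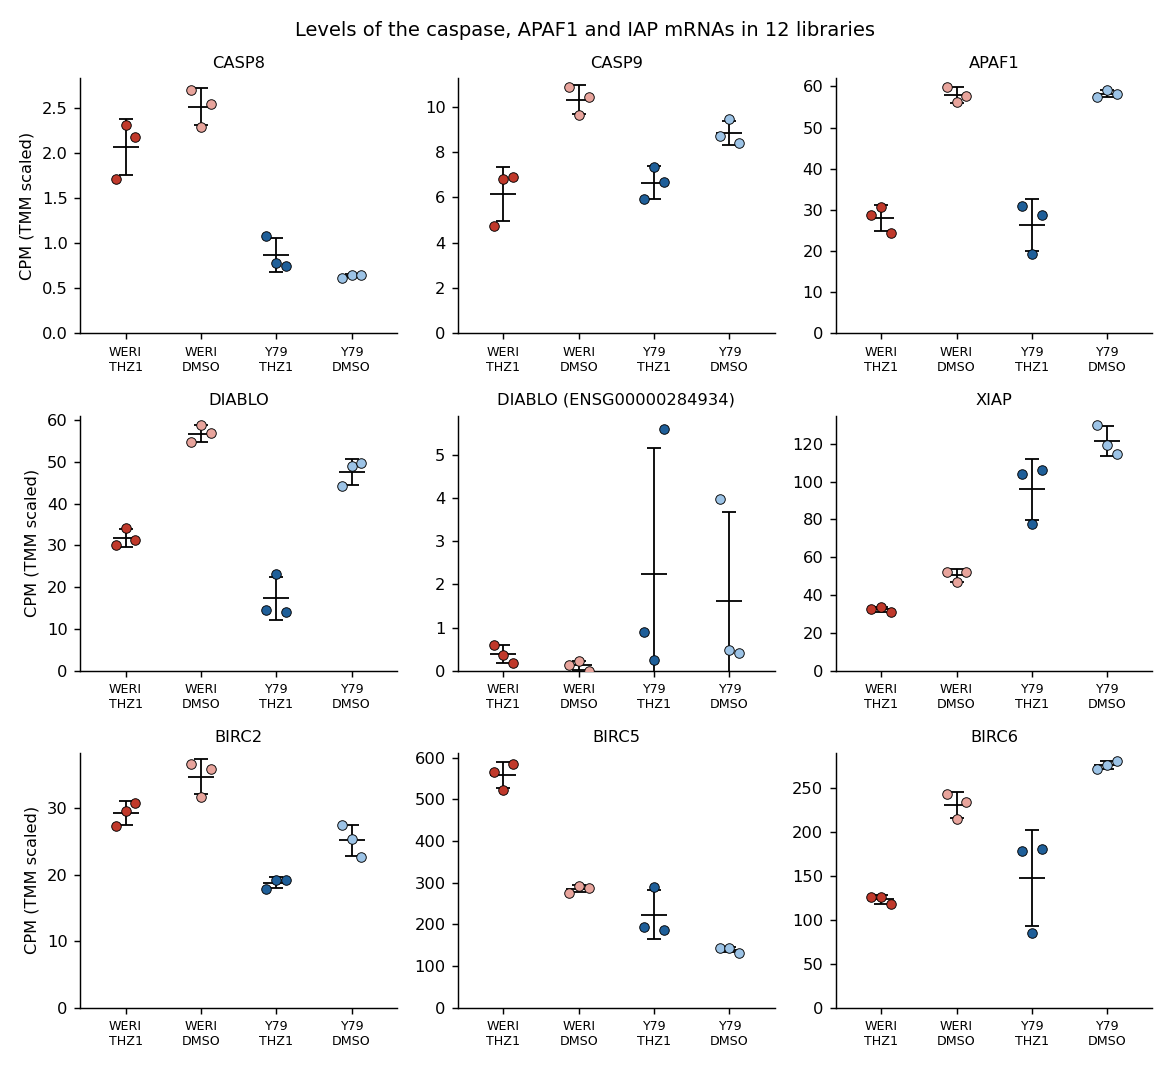
Levels of the 9 entries in each library, in CPM with TMM scaling on linear axes that start at 0, with THZ1 left of DMSO within each line; points are libraries, and bars give the group mean and the SD (cut off at 0 for the second DIABLO entry). The BIRC5 points of both THZ1 groups sit above their DMSO groups on this scale (with mitochondrial scaling the order turns round), and those of APAF1, DIABLO, XIAP, BIRC2, BIRC6 and CASP9 sit below.

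CASP8, the initiator caspase of the receptor route (ENSG00000064012, chromosome 2, 201233443 to 201287711 on GRCh38, plus strand), was the least abundant of the members with a single entry. It had 49, 68 and 63 counts in the WERI libraries with THZ1, against 115, 94 and 117 with DMSO, and only 30, 16 and 18 counts in Y79 with THZ1, against 26, 26 and 27 with DMSO. Scaled to CPM, these were 1.71, 2.30 and 2.17 in WERI with THZ1 against 2.70, 2.29 and 2.54 with DMSO, and 1.08, 0.775 and 0.748 in Y79 with THZ1 against 0.618, 0.652 and 0.650 with DMSO. The WERI groups touched at 2.30 and 2.29 CPM, while the Y79 groups did not overlap. Neither change passed the test, with a log2 fold change of -0.28 ± 0.252 in WERI (SE, adjusted p = 0.357) and 0.45 ± 0.279 in Y79 (adjusted p = 0.183), or 0.49 in Y79 without the library that stood apart. The WERI value was called lower in 2 alternatives, at -2.17 under mitochondrial scaling (adjusted p = 2.13e-06) and at -0.73 with library size alone (adjusted p = 0.0242). The positive value in Y79 became -0.11 with library size only and -1.26, then called (adjusted p = 0.00181), under mitochondrial scaling.

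CASP9, the initiator caspase of the mitochondrial route (ENSG00000132906, chromosome 1, 15490832 to 15526534, minus strand), fell in both lines. Its level was 4.76, 6.81 and 6.90 CPM in WERI with THZ1, against 10.9, 9.63 and 10.4 CPM with DMSO. In Y79 it was 5.91, 7.36 and 6.69 CPM with THZ1, against 8.70, 9.46 and 8.40 CPM with DMSO. Every THZ1 library lay under every DMSO library of its line. The log2 fold change was -0.74 ± 0.156 in WERI (adjusted p = 0.000895) and -0.41 ± 0.157 in Y79 (adjusted p = 0.0335). The Y79 call was lost with RLE factors (adjusted p = 0.103), with DESeq2 (0.0791) and without any one of 4 single Y79 libraries (adjusted p up to 0.0999), while it held without the library that stood apart (-0.52, adjusted p = 0.0126).

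APAF1, the scaffold of the apoptosome (ENSG00000120868, chromosome 12, 98645141 to 98735433, plus strand), stood near one level in both lines with DMSO and near one lower level in both with THZ1. The WERI libraries had 28.7, 30.6 and 24.5 CPM with THZ1, against 59.9, 56.2 and 57.7 CPM with DMSO. The Y79 libraries had 31.0, 19.3 and 28.8 CPM with THZ1, against 57.4, 59.0 and 58.3 CPM with DMSO. The groups were far apart in each line, and the lowest value of all was the Y79 library with THZ1 that stood apart. APAF1 was 2.07-fold lower in WERI (log2 -1.05 ± 0.137, adjusted p = 1.25e-05) and 2.20-fold lower in Y79 (log2 -1.14 ± 0.138, adjusted p = 5.13e-06), and without that library the Y79 value was -0.99 (adjusted p = 1.19e-08). The table was counted from libraries without strand, and 750 exonic bases of APAF1 overlap ANKS1B on the other strand, whose own entry held between 143 and 456 counts.

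DIABLO, the mitochondrial antagonist of the IAPs, was measured chiefly by ENSG00000184047 (chromosome 12, 122207663 to 122226568, minus strand). In WERI it was at 30.1, 34.2 and 31.2 CPM with THZ1, against 54.8, 58.7 and 56.9 CPM with DMSO. In Y79 it was at 14.5, 23.2 and 14.1 CPM with THZ1, against 44.1, 49 and 49.8 CPM with DMSO. The groups did not overlap in either line, and the highest Y79 value with THZ1 came from the library that stood apart. The log2 fold change was -0.84 ± 0.145 in WERI (adjusted p = 0.000176) and -1.47 ± 0.150 in Y79 (adjusted p = 9.33e-07), the steepest fall among the members in Y79, and -1.76 without that library. At -1.47 DIABLO lay where 12.4% of all tested genes had a lower log2 fold change.

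The second DIABLO entry (ENSG00000284934) shares 2006 exonic bases, 85.3% of its exons, with the first, and part of both overlaps B3GNT4 on the other strand, so reads can be split between them. It held 17, 11 and 5 counts in WERI with THZ1 against 6, 9 and 0 with DMSO, and 25, 5 and 135 counts in Y79 with THZ1 against 168, 19 and 17 with DMSO. Single libraries of the Y79 groups held nearly all of its counts, and none of its THZ1 changes passed the test (adjusted p = 0.338 in WERI and 0.740 in Y79). When both entries were summed, DIABLO kept its direction and its call in each line.

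The promoters of CASP9, APAF1 and DIABLO are printed because these 3 genes of the mitochondrial route fell in both lines. Each is the window of 250 bases upstream of the first start that RefSeq lists for the gene on GRCh38.p14, written along the gene's strand, with GC boxes (GGGCGG, or CCGCCC on the other strand) in capitals. They lie at chr1:15524216-15524465 (minus strand), chr12:98645040-98645289 (plus strand) and chr12:122226569-122226818 (minus strand).
CASP9: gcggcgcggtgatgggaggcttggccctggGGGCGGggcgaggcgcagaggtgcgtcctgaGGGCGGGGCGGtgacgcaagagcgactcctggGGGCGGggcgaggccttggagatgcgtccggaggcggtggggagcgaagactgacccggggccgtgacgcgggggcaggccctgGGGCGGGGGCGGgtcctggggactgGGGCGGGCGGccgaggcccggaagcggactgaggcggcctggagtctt
APAF1: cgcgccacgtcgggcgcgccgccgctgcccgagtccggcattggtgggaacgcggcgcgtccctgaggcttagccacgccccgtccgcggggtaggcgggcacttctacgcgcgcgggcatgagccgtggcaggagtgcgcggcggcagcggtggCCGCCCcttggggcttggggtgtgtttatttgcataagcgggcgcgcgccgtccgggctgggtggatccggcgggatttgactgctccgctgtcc
DIABLO: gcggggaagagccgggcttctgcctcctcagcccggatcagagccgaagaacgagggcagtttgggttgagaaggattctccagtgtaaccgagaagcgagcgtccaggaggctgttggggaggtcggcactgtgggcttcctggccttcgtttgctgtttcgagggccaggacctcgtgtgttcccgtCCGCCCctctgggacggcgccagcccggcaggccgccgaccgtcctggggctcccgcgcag
The CASP9 window holds 8 matches, several of them overlapping in the runs of capitals, and the APAF1 and DIABLO windows hold 1 each. RefSeq windows matched 7 of the 8 symbols, and 12 of their 17 windows held a GC box, beside 42.6% of all 35116 windows of this length. Allowing both strands, TATAAA was found in 1 member window (of CASP8), beside 10.7% of all, and TGACGTCA in 1 (of BIRC2), beside 1.65% of all. A match describes the letters of the window and is not a measured binding site.

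XIAP, the IAP that blocks caspases directly (ENSG00000101966, chromosome X, 123859724 to 123913979, plus strand), stood higher in Y79 than in WERI. With THZ1 the WERI libraries had 32.5, 33.4 and 31.1 CPM, against 52.4, 46.6 and 52.3 CPM with DMSO. The Y79 libraries had 104, 77.3 and 106 CPM with THZ1, against 130, 119 and 115 CPM with DMSO. Both lines showed lower XIAP with THZ1 and no overlap, while every Y79 library stayed above every WERI library. The log2 fold change was -0.64 ± 0.107 in WERI (adjusted p = 0.000128) and -0.34 ± 0.104 in Y79 (adjusted p = 0.0112), and the Y79 value was -0.24 without the library that stood apart (adjusted p = 0.00436). With RLE factors the Y79 call was lost (-0.24, adjusted p = 0.0522).

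BIRC2, the ubiquitin ligase cIAP1 (ENSG00000110330, chromosome 11, 102347211 to 102378670, plus strand), changed least among the called members in WERI. It had 27.3, 29.6 and 30.8 CPM in WERI with THZ1, against 36.6, 31.7 and 35.9 CPM with DMSO. It had 17.8, 19.3 and 19.2 CPM in Y79 with THZ1, against 27.4, 25.4 and 22.7 CPM with DMSO. The groups did not overlap, although in WERI the nearest libraries were less than 1 CPM apart. The log2 fold change of -0.25 ± 0.094 in WERI passed narrowly (adjusted p = 0.0349) and was lost with RLE factors (adjusted p = 0.153), with DESeq2 (0.145) and without WERI library 1 with THZ1 (0.122) or 1 (0.117) or 3 (0.103) with DMSO. In Y79 it was -0.42 ± 0.096 (adjusted p = 0.00146), and -0.47 without the library that stood apart.

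BIRC6, the giant ubiquitin-conjugating IAP (ENSG00000115760, chromosome 2, 32357028 to 32618899, plus strand), has the widest gene of the set, spanning 261.9 kb. In WERI it was at 126, 126 and 118 CPM with THZ1, against 243, 215 and 234 CPM with DMSO. In Y79 it was at 178, 85.1 and 181 CPM with THZ1, against 272, 276 and 281 CPM with DMSO. All THZ1 libraries were lower, and the library that stood apart was far under the other Y79 libraries with THZ1. The log2 fold change was -0.90 ± 0.209 in WERI (adjusted p = 0.00242) and -0.90 ± 0.208 in Y79 (adjusted p = 0.00234), and -0.65 in Y79 without that library.

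BIRC5, survivin (ENSG00000089685, chromosome 17, 78214186 to 78225636, plus strand), was the member called higher under TMM scaling and lower under mitochondrial scaling. Its level was 566, 523 and 585 CPM in WERI with THZ1, against 276, 292 and 288 CPM with DMSO. In Y79 it was 193, 290 and 186 CPM with THZ1, against 144, 142 and 132 CPM with DMSO. All THZ1 libraries were above the DMSO libraries of their line, and in Y79 the highest was the library that stood apart. BIRC5 was 1.95-fold higher in WERI (log2 0.97 ± 0.133, adjusted p = 2.09e-05) and 1.60-fold higher in Y79 (log2 0.68 ± 0.133, adjusted p = 0.000466), and 0.41 on the log2 scale in Y79 without that library (adjusted p = 4.78e-06). With library size only the values were 0.52 in WERI and 0.09 in Y79 (adjusted p = 0.432 in Y79). Under mitochondrial scaling they turned to -0.94 in WERI (adjusted p = 6.31e-06) and -1.04 in Y79 (adjusted p = 2.09e-06), less negative than the -2.01 and -1.80 of the typical gene in those lines. At the TMM scale BIRC5 lay above 86.0% of tested genes in WERI and above 75.9% in Y79.

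**Figure D2:**
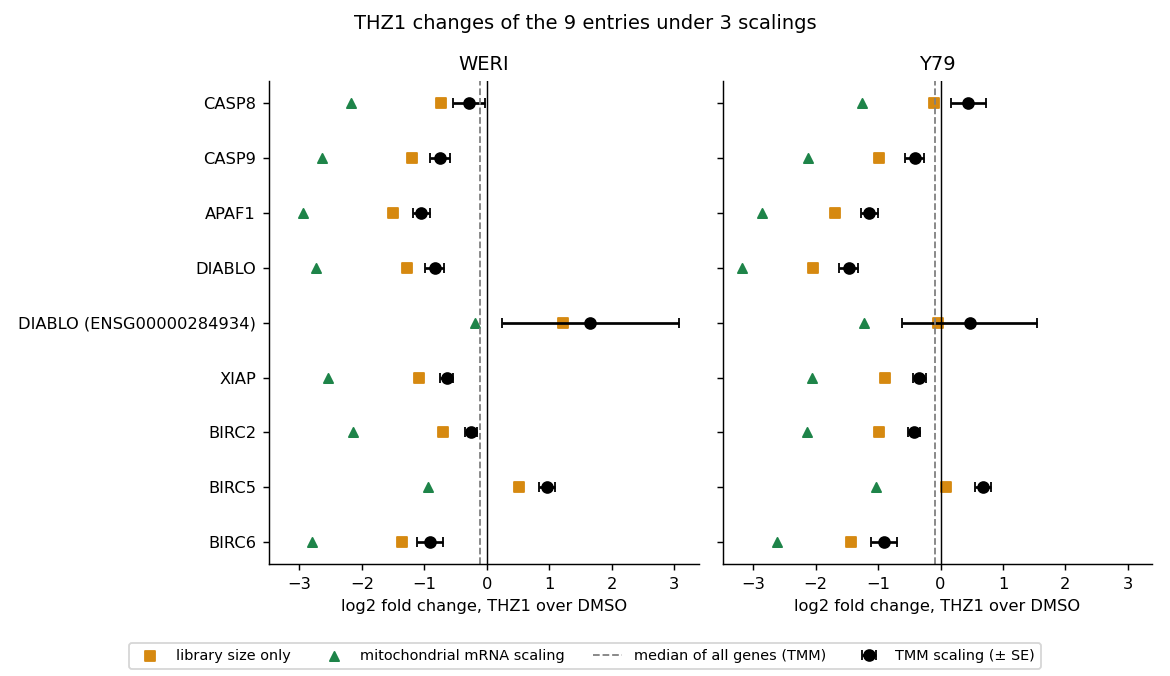
Log2 fold changes of the 9 entries, THZ1 over DMSO, in WERI and Y79 under 3 scalings; circles are TMM values with the SE, squares library size only, triangles mitochondrial mRNA scaling, and the dashed line is the median of all tested genes under TMM. BIRC5 sits at 0.97 in WERI and 0.68 in Y79 with TMM and at -0.94 and -1.04 under mitochondrial scaling, and it lies right of the other well measured members in WERI on every scale.

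The make-up of IAP mRNA does not depend on the scaling. Dividing CPM by exonic length and summing XIAP, BIRC2, BIRC5 and BIRC6, BIRC5 made up 89.9%, 88.8% and 90.1% of the sum in WERI with THZ1, against 72.5%, 76.0% and 73.8% with DMSO. In Y79 it made up 66.5%, 81.2% and 65.2% with THZ1, against 51.5%, 52.1% and 50.8% with DMSO. The groups did not overlap in either line. The means were 89.6% ± 0.690 with THZ1 and 74.1% ± 1.79 with DMSO in WERI, and 71.0% ± 8.92 with THZ1 and 51.5% ± 0.656 with DMSO in Y79 (SD, n = 3 each). BIRC6 moved the other way, averaging 4.24% with THZ1 and 12.8% with DMSO in WERI, and 10.6% with THZ1 and 21.8% with DMSO in Y79. XIAP averaged 2.20% with THZ1 and 5.53% with DMSO in WERI, and 13.3% with THZ1 and 18.9% with DMSO in Y79. These shares describe the libraries, and no test was made on them.

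**Figure D3:**
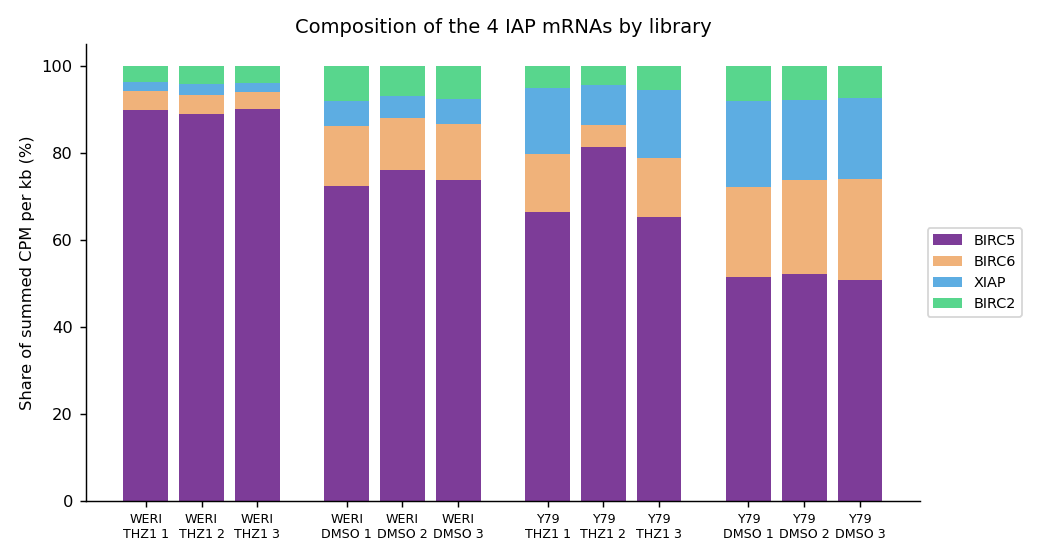
Share of XIAP, BIRC2, BIRC5 and BIRC6 in their summed CPM per kilobase of exon, in percent, for each library, with THZ1 left of DMSO within each line. The BIRC5 part fills 88.8% to 90.1% in WERI with THZ1 and 72.5% to 76.0% with DMSO, and 65.2% to 81.2% in Y79 with THZ1 and 50.8% to 52.1% with DMSO.

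Ratios of counts between genes of the same library also leave the scaling out. DIABLO per XIAP, antagonist over inhibitor, was 0.926, 1.02 and 1.00 in WERI with THZ1, against 1.05, 1.26 and 1.09 with DMSO. In Y79 it was 0.139, 0.301 and 0.133 with THZ1, against 0.340, 0.411 and 0.434 with DMSO. The THZ1 libraries were lower in both lines without overlap, by a little in WERI (log2 -0.20 between group means) and by more in Y79 (-1.15). XIAP per CASP9, inhibitor over its target, overlapped between THZ1 and DMSO in both lines, at 4.51 to 6.83 with THZ1 and 4.81 to 5.03 with DMSO in WERI and 10.5 to 17.6 with THZ1 and 12.6 to 14.9 with DMSO in Y79. APAF1 per CASP9 overlapped in WERI (3.55 to 6.04 with THZ1 and 5.50 to 5.84 with DMSO) and was lower without overlap in Y79 (2.62 to 5.25 with THZ1 and 6.24 to 6.94 with DMSO). BIRC5 per XIAP was 15.7 to 18.8 in WERI with THZ1 and 5.27 to 6.27 with DMSO, and 1.76 to 3.76 in Y79 with THZ1 and 1.11 to 1.19 with DMSO.

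BIRC5 mRNA also stood higher with THZ1 relative to a partner in the chromosomal passenger complex. BIRC5 per AURKB, its partner kinase, was 21.1, 19.1 and 22.1 in WERI with THZ1, against 4.28, 3.96 and 4.39 with DMSO. It was 10.6, 9.66 and 9.64 in Y79 with THZ1, against 1.74, 1.76 and 1.60 with DMSO. The groups lay several-fold apart in both lines, and the Y79 library that stood apart was near the others here. AURKB itself fell (log2 -1.34 ± 0.142 in WERI, adjusted p = 1.75e-06, and -1.87 ± 0.145 in Y79, adjusted p = 5.96e-08), as did the borealin gene CDCA8 (-1.50 and -1.49). The scaffold gene INCENP did not pass the test, at -0.18 in WERI (adjusted p = 0.0806) and -0.02 in Y79 (adjusted p = 0.895). Without the Y79 library that stood apart INCENP was called lower in WERI, at -0.21 (adjusted p = 0.00627).

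**Figure D4:**
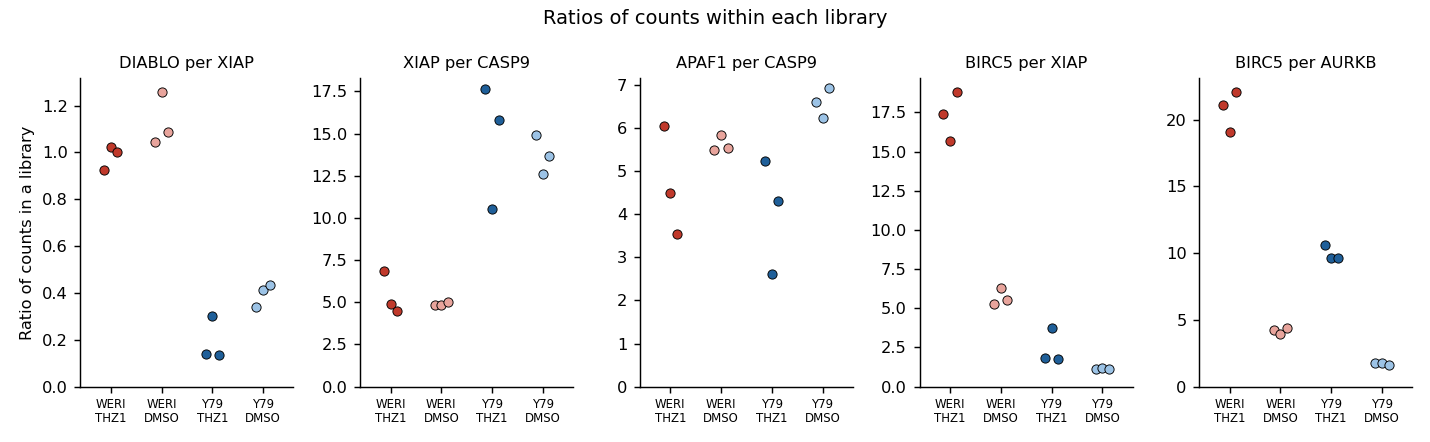
Ratios of counts between genes within each library, on linear axes that start at 0, with THZ1 left of DMSO within each line; each point is a library. BIRC5 per AURKB was 19.1 to 22.1 in WERI with THZ1 and 3.96 to 4.39 with DMSO, and 9.64 to 10.6 in Y79 with THZ1 and 1.60 to 1.76 with DMSO, while XIAP per CASP9 overlapped in both lines.

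Ordered by level per kilobase of exon, BIRC5 was first in all 4 groups, at 146 ± 8.22 CPM per kb in WERI with THZ1 and 74.8 ± 2.21 with DMSO, and at 58.5 ± 15.3 in Y79 with THZ1 and 36.5 ± 1.79 with DMSO. It did not overlap the next member in any group. In WERI with THZ1 the order then ran BIRC6, BIRC2, DIABLO, XIAP, APAF1, CASP9, CASP8, and neither BIRC6 and BIRC2 nor XIAP and APAF1 differed beyond their spread. In WERI with DMSO it ran BIRC6, DIABLO, BIRC2, APAF1, XIAP, CASP9, CASP8, with BIRC2 and APAF1 overlapping. In Y79 with THZ1 XIAP came next (10.6 ± 1.78 CPM per kb) and overlapped BIRC6, followed by BIRC2, APAF1, DIABLO and CASP9, with APAF1 and DIABLO overlapping. In Y79 with DMSO the order was BIRC6, XIAP, APAF1, DIABLO, BIRC2, CASP9, with APAF1 and DIABLO overlapping. CASP8 was last of the single-entry members in every group, at 0.120 ± 0.0256 CPM per kb in Y79 with THZ1 and 0.0883 ± 0.00265 with DMSO, where it exceeded 11.5% and 11.2% of tested genes.

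The interaction term asked whether THZ1 changed a gene by a different amount in Y79 than in WERI. DIABLO was the 1 entry called, with a difference (Y79 minus WERI) of -0.63 ± 0.206 on the log2 scale (adjusted p = 0.0478), against 22.0% of all tested genes called (8.73% higher and 13.2% lower). That call was lost without any one of 11 of the 12 libraries (adjusted p up to 0.130), with RLE factors (0.0656) and under mitochondrial scaling (0.204). It was larger without the Y79 library that stood apart (-0.90, adjusted p = 1.04e-05). Without that library 3 more members were called: XIAP at 0.43 (adjusted p = 0.00138), BIRC6 at 0.28 (adjusted p = 0.00788) and BIRC5 at -0.52 (adjusted p = 5.92e-05). Calls rose over all genes too, with 2161 higher and 3031 lower of 15111 tested. With all libraries these were 1298 and 1965 of 14865.

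With all libraries the differences of the other members had 95% intervals, not adjusted for the number of genes, of -0.47 to 0.29 for APAF1, -0.44 to 0.09 for BIRC2, -0.65 to 0.08 for BIRC5, -0.57 to 0.58 for BIRC6, -0.10 to 0.76 for CASP9, -0.01 to 1.46 for CASP8 and 0.01 to 0.59 for XIAP. These intervals use the normal distribution and are narrower than the quasi-likelihood test implies. For XIAP the whole interval was positive, while the unadjusted p of that test was 0.0635. None of these differences passed the test before or after adjustment (adjusted p = 0.186 for XIAP, 0.208 for CASP8 and 0.319 for BIRC5).

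The lines also differed before any THZ1. In DMSO, Y79 was higher than WERI in XIAP (2.40-fold, log2 1.27 ± 0.106, adjusted p = 1.64e-07) and in the second DIABLO entry, and lower in CASP8 (3.91-fold, log2 -1.97 ± 0.267, adjusted p = 2.13e-05), BIRC5 (2.05-fold, log2 -1.03 ± 0.133, adjusted p = 1.30e-05) and BIRC2 (log2 -0.46 ± 0.094, adjusted p = 0.000692). That is 2 higher and 3 lower of 9, against 64.9% of tested genes called (32.3% higher and 32.6% lower). The lines did not overlap in DMSO for 8 entries, with Y79 higher in 3 and lower in 5, as for 77.9% of tested genes (38.9% higher and 39.0% lower), and APAF1 was the entry that overlapped. The second DIABLO entry rests on 1 Y79 library of 168 counts (log2 3.75 ± 1.33, adjusted p = 0.0283). APAF1 did not differ past the threshold, with a 95% interval of -0.25 to 0.27, nor did CASP9 (-0.22 ± 0.153, adjusted p = 0.230), DIABLO (-0.25 ± 0.142, adjusted p = 0.141) and BIRC6 (0.26 ± 0.206, adjusted p = 0.297). DIABLO at -0.27 (adjusted p = 0.00226) and BIRC6 at 0.24 (adjusted p = 0.000348) were called without the library that stood apart, which enters this comparison through the shared estimate of the spread. Without that library 5227 genes were called higher and 5500 lower of 15111 tested, against 4802 and 4844 of 14865 with it.

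Around the members, 6 lists of 39 pathway genes were examined, of which 27 passed the filter on low counts. In WERI 5 of the 27 rose and 14 fell (median log2 -0.56), and in Y79 6 rose and 13 fell (median -0.34), or 8 and 15 of 28 without the library that stood apart, beside medians of -0.11 and -0.09 over all tested genes. The share called is read against the 64.8% of all tested genes in WERI and the 68.3% in Y79. With library size only 3 rose and 19 fell in WERI, and 3 and 17 in Y79, while mitochondrial scaling gave 0 and 26 in WERI and 0 and 24 in Y79. Of all 14865 tested genes, library size only called 2221 higher and 7961 lower in WERI, and 2175 and 8334 in Y79. Mitochondrial scaling called 111 higher and 13328 lower in WERI, and 283 and 12188 in Y79. Without the library that stood apart, 4387 were higher and 6001 lower of 15111 in Y79. Of 7 other caspases, 2 were measured. CASP6, an executioner caspase that cuts nuclear lamins, fell in both lines. It averaged 9.92 ± 0.408 CPM with THZ1 and 25.8 ± 1.14 CPM with DMSO in WERI, and 5.17 ± 1.26 CPM with THZ1 and 20.9 ± 1.31 CPM with DMSO in Y79. Its log2 fold change was -1.38 ± 0.135 in WERI (adjusted p = 7.62e-07) and -2.02 ± 0.142 in Y79 (adjusted p = 2.24e-08). CASP2 rose in Y79 (0.57 ± 0.074, adjusted p = 1.05e-05) and did not pass in WERI (0.09 ± 0.074, adjusted p = 0.316). Its Y79 call was lost with library size only (0.011, adjusted p = 0.947) and its value turned to -1.14 under mitochondrial scaling. With RLE factors and with DESeq2 CASP2 was called higher in WERI as well, at no more than 0.17. The WERI value turned to -0.36 with library size only and to -1.80 under mitochondrial scaling, both called lower. CASP1, CASP5 and CASP14 had no counts in any library, and CASP4 and CASP10 had at most 8 and 10, all in WERI.

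Among 4 mitochondrial death factors, CYCS, the cytochrome c gene, rose while the serine protease gene HTRA2 and the nuclease gene ENDOG fell in both lines. CYCS averaged 235 ± 16.6 CPM with THZ1 and 95 ± 2.44 CPM with DMSO in WERI, and 300 ± 45.4 CPM with THZ1 and 160 ± 7.86 CPM with DMSO in Y79. That was a log2 fold change of 1.31 ± 0.097 in WERI and 0.91 ± 0.096 in Y79, which turned to -0.59 and -0.80 under mitochondrial scaling. HTRA2 stood at -0.56 in WERI and -0.58 in Y79, and ENDOG at -1.33 and -1.41. CYCS and its partner APAF1 were thus called in opposite directions in each line under TMM. AIFM1, the apoptosis-inducing factor, fell in Y79 (-0.39 ± 0.078) and did not pass in WERI (-0.11, adjusted p = 0.255).

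On the receptor side, 8 of 12 genes were measured, with 1 higher and 4 lower in WERI and 1 higher and 3 lower in Y79, against the shares of all tested genes given above. Mitochondrial scaling gave 0 higher and 8 lower in WERI and 0 and 6 in Y79. On that scale 13328 of all 14865 tested genes were called lower in WERI and 12188 in Y79. Without the Y79 library that stood apart 3 of 9 were higher and 4 lower in Y79, beside 4387 and 6001 of 15111. The adaptor FADD fell in both lines (log2 -1.51 in WERI and -1.71 in Y79), as did the kinase RIPK1 (-1.17 and -0.97) and the TRAIL receptor TNFRSF10B (-1.47 ± 0.074 and -0.80 ± 0.071). TNFRSF25 rose in both (0.92 and 1.76), although under mitochondrial scaling its WERI value turned to -0.99 and its Y79 call was lost (0.055, adjusted p = 0.839). TNFRSF1A, a tumour necrosis factor receptor, averaged 2.14 ± 0.344 CPM with THZ1 and 26.1 ± 0.674 CPM with DMSO in WERI (log2 -3.61 ± 0.390, adjusted p = 2.96e-06), and was near 0 in Y79 at 0 to 9 counts with THZ1 and 4 to 22 with DMSO. FAS had 41 to 80 counts in WERI with THZ1 and 126 to 155 with DMSO. Its change in WERI did not pass the test (log2 -0.66 ± 0.480, adjusted p = 0.253), though it was called lower in 2 of 20 alternatives. In Y79 FAS had at most 8 counts with THZ1 and 3 with DMSO. Without the Y79 library that stood apart, FAS was called higher in Y79 at 2.28 (adjusted p = 0.0149) and TNFRSF1A lower at -2.47 (adjusted p = 0.0235), both on these few counts. In DMSO, Y79 was lower than WERI by log2 -6.25 ± 0.705 for FAS (adjusted p = 3.53e-06) and -6.29 ± 0.466 for TNFRSF1A (adjusted p = 8.04e-08), and higher for TNFRSF10B (1.47 ± 0.072). The ligand gene FASLG had no counts, and TNFSF10 had at most 2. The ligand gene TNF did not pass the filter on low counts and was not tested with all libraries. It had 10, 4 and 5 counts in WERI with THZ1, against 0, 0 and 0 with DMSO. In Y79 TNF had 8, 4 and 20 counts with THZ1, against 0, 0 and 4 with DMSO. On these few counts its THZ1 libraries were higher in CPM without overlap in both lines.

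Of 7 other IAPs and regulators, 4 were measured, with 2 higher and 1 lower in WERI and 2 higher and 0 lower in Y79. These counts are read against the shares of all tested genes given above. With library size only 0 were called higher and 1 lower in each line, and under mitochondrial scaling 0 higher and 3 lower. On those scales too, the counts over all tested genes given above are the background. SEPT4, whose ARTS product binds XIAP, rose in WERI (0.50 ± 0.112, adjusted p = 0.00153) and Y79 (0.38 ± 0.114, adjusted p = 0.00944), and turned to -1.41 and -1.32 under mitochondrial scaling and to -0.19 in Y79 with library size only, where its WERI call was lost (0.046, adjusted p = 0.670). Without the Y79 library that stood apart its Y79 value was 0.18 (adjusted p = 0.0388). BIRC7, an IAP known from melanoma, was called higher in Y79 (2.30 ± 0.831, adjusted p = 0.0265) at an average of 1.02 CPM with THZ1 and 0.204 CPM with DMSO, though not with library size only. TRAF2, the adaptor that brings BIRC2 to receptors, fell in WERI (-0.60 ± 0.090) and did not pass in Y79 (0.17 ± 0.091, adjusted p = 0.117). BIRC3, the closest relative of BIRC2, had at most 7 counts in any library. Of 6 caspase substrate and nuclease genes, PARP1 rose (1.06 ± 0.069 in WERI and 0.96 ± 0.068 in Y79, turning to -0.84 and -0.75 under mitochondrial scaling) and 4 fell in each line. Over all tested genes 64.8% were called in WERI and 68.3% in Y79. Under mitochondrial scaling 0 of the 6 were higher and 6 lower in each line, beside 13328 lower of 14865 in WERI and 12188 in Y79. Without the Y79 library that stood apart 1 was higher and 5 lower in Y79, beside 4387 and 6001 of 15111. LMNB1, lamin B, stood at -1.09 ± 0.087 in WERI and -1.56 ± 0.088 in Y79, and the nuclease gene DFFB and its inhibitor DFFA at -1.42 and -0.77 in WERI and -1.67 and -0.85 in Y79.

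**Figure D5:**
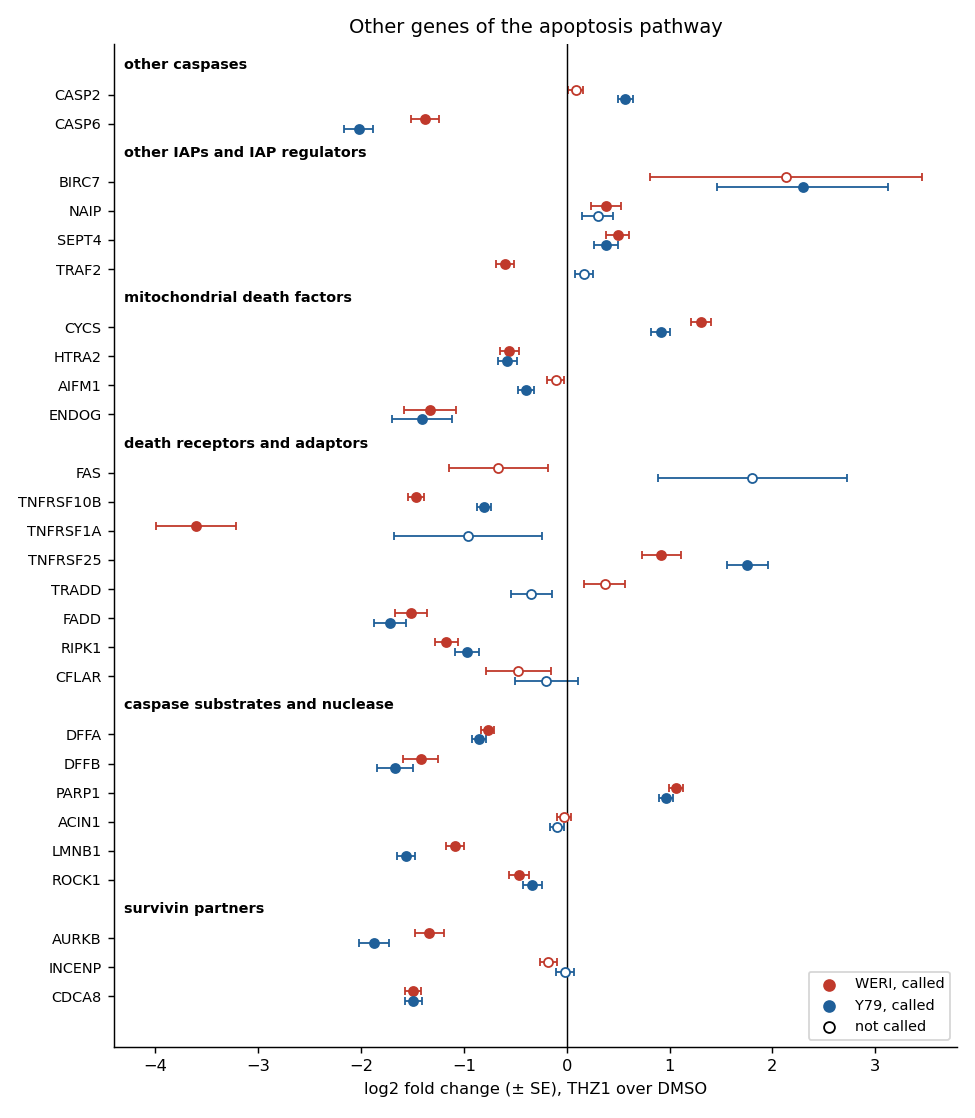
Log2 fold changes, THZ1 over DMSO with TMM scaling and the SE, of the 27 tested pathway genes by list, red for WERI and blue for Y79; filled points were called at an adjusted p under 0.05 and open points were not. CYCS (1.31 in WERI and 0.91 in Y79) and PARP1 (1.06 and 0.96) lie right of 0 in both lines, and turn to the left under mitochondrial scaling, while CASP6 and FADD lie left of 0.

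Over the 12 libraries the 2 genes most like each member, by Pearson's r of log2 CPM among 9632 genes averaging 3 or more on that scale, were as follows, given as a description because the libraries fall into 4 groups and share their scaling. APAF1 was closest to NSD3 (r = 0.996) and MED13 (0.994), XIAP to RNMT (0.997) and PHF6 (0.994), and BIRC5 to ANXA5 (0.998) and RBBP7 (0.996). BIRC6 was closest to PRRC2C (0.995) and BRCA2 (0.991), DIABLO to ZNF766 (0.990) and ECI2 (0.988), CASP8 to SMARCA2 (0.984) and ACER3 (0.979), and BIRC2 to ZBTB8A (0.983) and CHORDC1 (0.979). CASP9 had the lowest best likeness of the single-entry members, at 0.951 with STK38 and 0.949 with HSF2.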

How the data were processed

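Total RNA of 12 cultures was sequenced, and the authors deposited a table of whole-number counts per gene, with no normalization that the values show. The library kit was NEBNext Ultra RNA, per the labels' protocols, and Cufflinks and GRCh38 are named per the submitters' processing notes. Aligner and counting method: not given in the sources used here. That kit does not keep strand, so reads of genes overlapping on opposite strands cannot be told apart. The series' design text calls the cultures of a group biological repeats, and p-values measure the spread between these cultures only.

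The fit used edgeR 4.0.16 (R 4.3.3): filterByExpr at its defaults left 14865 Ensembl genes, TMM factors scaled the libraries, and glmQLFit with robust spread and glmQLFTest took all 12 libraries together, each group having 1 mean (8 residual degrees of freedom). Tests were two-sided, with Benjamini-Hochberg adjustment over all tested features and calls at an adjusted p under 0.05. The SE of a log2 fold change was obtained as its size over the root of the F statistic. The 95% intervals used this SE with the normal distribution, so they are narrower than the test implies. There were 4 contrasts: the THZ1 change of each line, the difference of these changes (Y79 minus WERI), and the lines compared in DMSO. Positions and exonic lengths are from GENCODE 29 on GRCh38, and promoters from RefSeq on GRCh38.p14. The fit was tested on simulated counts in which a small set of genes changed, as many up as down. That simulation had no broad shift, so it cannot show how TMM scaling performs on these data. Alternatives were RLE factors, library size only, mitochondrial mRNA scaling, no filter, DESeq2 1.42.0, a replicate block, only the groups compared, both DIABLO entries summed, and leaving out each library in turn.

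The members and the gene lists were chosen with earlier results of these data known, and some genes of the lists are not reported here. The 8 members are always named, CDK7 once, any gene of the lists may be named, and the 2 genes most like each member are given. Figures and ratios used Python 3.11.15, matplotlib 3.10.9, pandas 2.3.3 and numpy 2.4.6.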

Additional observations from a re-analysis of the deposited data

Results flagged for a closer look

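For 7 genes the test of the difference between the THZ1 changes of the lines (Y79 minus WERI, log2, edgeR's quasi-likelihood test) passed the threshold. The difference was positive for TNFRSF25 (0.84), TRAF2 (0.77), TNFRSF10B (0.66) and CASP2 (0.48), and negative for CASP6 (-0.64), DIABLO (-0.63) and LMNB1 (-0.47). The adjusted p was 0.0449 for TNFRSF25, 0.00109 for TRAF2, 0.000643 for TNFRSF10B, 0.00609 for CASP2, 0.0339 for CASP6, 0.0478 for DIABLO and 0.0160 for LMNB1, in a comparison that called 22.0% of all tested genes. The log2 fold change of CASP6 was -2.02 in Y79 and -1.38 in WERI, and the call on its difference was lost in 11 of 19 alternatives, with an adjusted p of up to 0.177, or up to 0.0829 when a library was left out. For LMNB1 the call was also lost under mitochondrial scaling (-0.29, adjusted p = 0.249) and when a particular library was left out (adjusted p = 0.0580). For CASP2 it was lost with library size only (0.37, adjusted p = 0.0863). For TNFRSF25 it was lost in 12 of 19 alternatives (adjusted p up to 0.126). Without the Y79 library that stood apart, TNFRSF25 no longer passed (0.75, adjusted p = 0.0511) and the other 6 did.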

How the results depend on the processing

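Counts of called entries moved mainly with the scaling. Of the members, 0 were called higher in WERI under mitochondrial scaling, and 0 in Y79 under mitochondrial scaling and with library size only. Genes called higher numbered 2221 in WERI and 2175 in Y79 with library size only, and 111 in WERI and 283 in Y79 under mitochondrial scaling, where genes called lower numbered 13328 in WERI and 12188 in Y79. For the difference between the lines, 740 genes were called higher with library size only and 713 lower under mitochondrial scaling, and leaving out a library in turn gave 890 to 2161 higher and 1437 to 3031 lower, the highest of each without the Y79 library that stood apart. Members called lower in that difference were 0 with RLE factors and under mitochondrial scaling, 2 with library size only (DIABLO and BIRC5), and 0 to 2 when a library was left out, with 0 to 2 called higher. Beside these, 1797 of all 14865 tested genes were called lower with RLE factors, 713 under mitochondrial scaling and 2697 with library size only. In DMSO, 2706 genes were called higher in Y79 under mitochondrial scaling. Of the members, 1 was then called higher under mitochondrial scaling, with no filter and with both DIABLO entries summed and 1 to 3 when a library was left out. Over all genes 4680 of 17649 were called higher with no filter and 4802 of 14864 with both entries summed. Leaving out a library gave 4265 to 5227. Members called lower numbered 5 under mitochondrial scaling and 5 with library size alone, beside 6322 and 5730 of all 14865 tested genes.

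The replicate numbers did not pair the samples (same-number correlations of -0.07 to 0.01 between the groups compared). The fit with a replicate block called 3984 genes higher and 5411 lower in WERI and 4254 and 5634 in Y79, and BIRC2 in WERI no longer passed (-0.25, adjusted p = 0.0569). In DMSO the block called 1 member higher in Y79 than in WERI, beside 4690 of all 14865 tested genes higher and 4695 lower. The BIRC6 difference turned to -0.041 under the block.

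Directions that turned under mitochondrial scaling, as log2 values, were BIRC5 in WERI (-0.94) and Y79 (-1.04), CASP8 in Y79 (-1.26), DIABLO_ENSG00000284934, the second DIABLO entry, in WERI (-0.19) and Y79 (-1.23), CASP2 in WERI (-1.80) and Y79 (-1.14), CYCS in WERI (-0.59) and Y79 (-0.80), TRAF2 in Y79 (-1.54), SEPT4 in WERI (-1.41) and Y79 (-1.32), PARP1 in WERI (-0.84) and Y79 (-0.75) and TNFRSF25 in WERI (-0.99). The same scaling turned the differences between the lines of APAF1 (0.087) and BIRC2 (0.0086), and in DMSO those of APAF1 (-0.27) and BIRC6 (-0.019). With library size only CASP8 (-0.11), the second DIABLO entry (-0.036), TRAF2 (-0.40) and SEPT4 (-0.19) turned in Y79, CASP2 (-0.36) in WERI, APAF1 in DMSO (-0.15) and the BIRC6 difference (-0.085), which was -0.00079 with no filter. INCENP in Y79 was 0.087 with RLE factors and with DESeq2, and APAF1 in DMSO was -0.027 with only the groups compared. Leaving out a library in turn gave ranges that crossed 0 for the differences of APAF1 (-0.22 to 0.090), BIRC6 (-0.15 to 0.28) and the second DIABLO entry (-3.11 to 0.68), for APAF1 in DMSO (-0.013 to 0.033), and for the second DIABLO entry (-1.48 to 2.33) and INCENP (-0.083 to 0.058) in Y79. The log2 ratio of XIAP per CASP9 ranged over -0.056 to 0.24 in WERI and -0.088 to 0.29 in Y79. None of these was called in the fit as reported except BIRC5, CYCS, PARP1, SEPT4 and TNFRSF25 in both lines and CASP2 in Y79. The causes were not tested.

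Low counts limit CASP8 in Y79 (16 to 30 per library), FAS and TNFRSF1A in Y79, TNF in both lines, and the second DIABLO entry. A count of 0 leaves room for up to 3 counts, for counting error only. The 3 libraries per group and the library that stood apart limit the differences between the lines.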
